A study of Homo sapiens with 21 samples.

Results

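The nuclear genes for mitochondrial ribosomal proteins were followed across 21 RNA-seq libraries of BT-549 cells, a human triple-negative breast cancer (TNBC) line. They were chosen by name alone, as every row of the count table whose Ensembl identifier carries a symbol made of MRPL or MRPS and a number, and 78 of 42339 genes met that rule, 49 with an MRPL and 29 with an MRPS symbol. The 7 groups had 3 libraries each, each from its own culture. Wild-type BT-549 cells were grown as adherent 2D monolayers in serum and insulin, or as 3D mammospheres at serial passage 6 in ultra-low attachment plates and mammosphere medium, so that culture format, medium and passage change together between 2D and 3D. Passage 6 mammospheres were also treated with 0.75 uM GO-203, a cell-penetrating peptide directed against the cytoplasmic domain of MUC1-C. In BT-549/tet-MUC1shRNA cells (passage 6) and BT-549/tet-MYCshRNA cells (passage 8 by the sample titles), each carrying 1 inducible hairpin after puromycin selection and also grown in 3D, expression of the hairpin was induced with 500 ng/ml doxycycline (DOX) and compared with 0.1% DMSO as vehicle. For protein blots of the tet-MYCshRNA line the paper names an earlier passage, so the passage of these libraries rests on the titles alone. Doxycycline belongs to the tetracyclines, which are known to inhibit mitochondrial as well as bacterial ribosomes. DOX without a hairpin was not analysed here, so within each line the hairpin and the drug cannot be told apart.

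The mitochondrial ribosome translates only the mRNAs that mitochondrial DNA (mtDNA) encodes, which are core subunits of the respiratory chain and of ATP synthase. Its rRNAs come from mtDNA, while all its proteins are made from nuclear genes in the cytosol and imported. The small subunit binds and decodes the mRNA, and the large subunit holds the peptidyl transferase center and the exit tunnel that faces the inner membrane. Of the 78 genes, 51 encode large subunit and 26 encode small subunit proteins. MRPS30 and MRPS18A count as large, since both proteins sit there despite their symbols. MRPS36 is now assigned to the oxoglutarate dehydrogenase complex and was placed in neither. Bacterial ribosomes have a homolog of 46 of the proteins, and the other 32 have none there or are divergent copies. Below, a bacterial homolog means one in the bacterial ribosome. The genes lie on 21 chromosomes, and none has another member within 1000 bases except MRPL46 and MRPS11, which start head to head on chromosome 15 with 62 bases between them.

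Because many of these genes moved together, the bases before their transcription starts are shown for members that led the changes in 3D and on MUC1 silencing, described below. These are MRPL4 (largest rise in 3D), MRPS18C (largest fall in 3D), MRPL52 and MRPL17 (largest rise and fall on MUC1 silencing). The stretches are the longest runs without an annotated exon among the 250 bases before the first-listed RefSeq start (GRCh38.p14), read 5′ to 3′ along the gene's strand. Capitals mark CACGTG, the E-box bound by MYC and MAX, and GCGCATGC, the core bound by NRF1, on either strand.
MRPL4 (chr19:10251701-10251900, plus strand): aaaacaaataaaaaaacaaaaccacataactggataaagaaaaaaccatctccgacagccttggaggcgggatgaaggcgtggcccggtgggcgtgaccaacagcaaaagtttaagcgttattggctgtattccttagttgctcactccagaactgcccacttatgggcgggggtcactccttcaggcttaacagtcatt
MRPS18C (chr4:83455856-83455931, plus strand): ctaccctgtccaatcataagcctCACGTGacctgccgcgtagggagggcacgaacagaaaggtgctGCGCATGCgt
MRPL52 (chr14:22829637-22829740, plus strand): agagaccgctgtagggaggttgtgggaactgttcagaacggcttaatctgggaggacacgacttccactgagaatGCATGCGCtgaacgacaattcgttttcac
MRPL17 (chr11:6683341-6683590, minus strand): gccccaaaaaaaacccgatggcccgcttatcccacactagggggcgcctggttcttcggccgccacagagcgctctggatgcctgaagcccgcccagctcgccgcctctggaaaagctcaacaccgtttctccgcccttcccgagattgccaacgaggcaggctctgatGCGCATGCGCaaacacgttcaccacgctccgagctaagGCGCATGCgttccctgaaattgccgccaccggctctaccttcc

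MRPL17 carries the NRF1 letters 3 times, 2 of them as overlapping matches on opposite strands, while the stretch of MRPL4 holds no marked motif. MRPL33 and MRPS34, which led the changes with GO-203, and MRPS2, which led the falls on MYC silencing, are not shown. Their promoters held no E-box and no NRF1 letters. RefSeq promoters from 250 bases before to 50 after the start were matched for 69 of the 78 genes. The E-box was present in 6 of them (8.7%), against 7.43% of all 27305 promoters, and GCGCATGC also in 6 (8.7%), against 3.27%. CCGGAAG, the core bound by ETS factors, was present in 29 (42%, against 10.7% of all promoters), and AAGATGGC, the core bound by YY1, in 20 (29%, against 3.03%). All 4 motifs were searched on both strands. Of the members that fell on MYC silencing, described below, 5 of 56 with a matched promoter carried the E-box (8.93%), against 1 of 12 of those not called (8.33%). These are letter matches in a short window and say nothing about binding.

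The libraries held 38026597 to 99751717 counts. A gene was called when edgeR's quasi-likelihood test, fitted across all genes of a comparison, gave a Benjamini-Hochberg adjusted p below 0.1. Levels are depth-normalized counts (CPM) scaled with TMM factors over all 21 libraries, and log2 fold changes come from each comparison's own fit. MUC1 mRNA fell on MUC1 silencing (log2 fold change of -2.06 ± 0.074 (SE), adjusted p = 2.96e-15). MYC mRNA fell on MYC silencing by less (log2 fold change of -0.62 ± 0.080 (SE), adjusted p = 9.05e-05), from 439, 418 and 386 to 244, 279 and 297 CPM. On MUC1 silencing MYC mRNA was higher (log2 fold change of 0.25 ± 0.043 (SE), adjusted p = 5.01e-05), and MUC1 mRNA was higher on MYC silencing (log2 fold change of 1.25 ± 0.11 (SE), adjusted p = 5.06e-06). VIM and ZEB1, which mark the mesenchymal state of this line, were expressed in every library, and ZEB1 fell on MUC1 silencing (log2 fold change of -1.41 ± 0.045 (SE), adjusted p = 3.94e-16). ESR1 and PGR, for the hormone receptors that define triple-negative tumors by their absence, reached at most 1.48 and 0.0684 CPM, while ERBB2, for HER2, stood at 18.4 to 42.0 CPM. The epithelial genes EPCAM and CDH1 reached at most 0.124 and 1.51 CPM. In bulk RNA, fewer cells that express a gene and less of its mRNA per cell cannot be told apart.

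Most members were expressed above the median protein-coding gene. Per kilobase of exon, the median member stood at 11.2 CPM, against 3.44 for 14173 protein-coding genes, and 67 of the 78 lay above that level. MRPL37, MRPL15 and MRPL3 had the highest levels per length (73.8, 71.8 and 69.5 CPM per kilobase, means over groups). The lowest were MRPL53 (0.00894), MRPL38 (0.182) and MRPL46 (0.369 CPM per kilobase), MRPL38 and MRPL46 being proteins of the central protuberance. MRPL53 had 0 to 2 counts in a library and was the only member that no comparison tested. It shares 72.8% of its exon bases with CCDC142 on the same strand, so reads from the pair could have been left uncounted or split. Such overlaps touch 18 members, and over 20% of the exon bases in 9, which are MRPL53, MRPL12 (69.5%), MRPL38 (41.1%), MRPS28 (35.8%), MRPL2 (29.2%), MRPS17 (25.0%), MRPS5 (23.3%), MRPS24 (23.2%) and MRPL33 (21.1%), whose values are therefore uncertain. Exon bases shared with genes on the opposite strand passed 20% in further members. Among them were MRPS18A (50.9%), MRPS18C (40.2%), MRPL43 (38.1%), MRPS34 (31.2%) and MRPL4 (21.3%). The strand setting of the counting is not given, so their values may be affected too. Pseudogenes exist for 36 members, 81 in all, and how reads with several matches were counted is not given in the sources used here.

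Together the 78 genes took 0.321% ± 0.0024 (SD, n = 3) of all counts in 2D cells and 0.376% ± 0.0091 in 3D cells. The share was 0.345% ± 0.0074 with GO-203. In the tet-MUC1shRNA line it was 0.323% ± 0.0028 with vehicle and 0.322% ± 0.0058 with DOX. The tet-MYCshRNA line spanned the widest range, from 0.422% ± 0.011 with vehicle to 0.264% ± 0.0016 with DOX. The groups did not overlap for 3D against 2D, GO-203 and MYC silencing, each with an exact permutation p of 0.1 (two-sided), the smallest that 3 against 3 libraries can give, while the MUC1 silencing groups overlapped (p = 1). That overlap depended on the mtDNA-encoded counts, which made up 2.6% to 2.78% of counts with vehicle and 6.36% to 6.72% with DOX in this line. Without them the share was 0.331% ± 0.0031 with vehicle and 0.345% ± 0.0055 with DOX, and the groups did not overlap (exact permutation p = 0.1). The 3 mammosphere groups without GO-203 or DOX also stood apart from one another. The 3D and tet-MUC1shRNA vehicle groups share passage 6 but differ in line and in the 0.1% DMSO, while both vehicle groups share the 0.1% DMSO but differ in line and, by the titles, in passage.

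**Figure D1:**
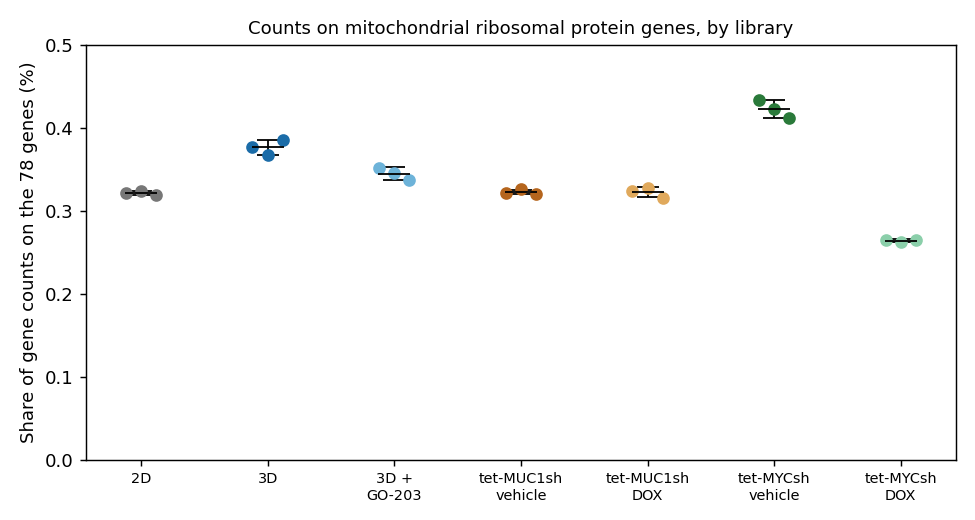
Share of all gene counts (%, axis from 0) on the 78 mitochondrial ribosomal protein genes in each of 21 libraries, by group; points are libraries, and bars give the group mean ± SD. The tet-MYCshRNA vehicle libraries are highest and the tet-MYCshRNA DOX libraries lowest, while the groups of the tet-MUC1shRNA line overlap.

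To ask how growth as mammospheres relates to these genes, 3D cells were compared with 2D cells. Of 77 genes tested, 51 were higher and 8 lower in 3D, and 18 were not called. The background was 32.0% of 19190 genes higher and 31.7% lower, against 66.2% and 10.4% of the members. The median member was 0.31 higher on the log2 scale, while the median of all genes was -0.01. Changes past 1.5-fold were fewer, 12 higher and 1 lower, against a background of 17.9% and 21.1% of all genes. The groups did not overlap in 48 members that were above 2D and 9 that were below, against 32.3% and 31.9% of all genes.

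MRPL4, which lines the exit tunnel of the large subunit, led the rises. Its level was 15.8, 16.6 and 12.8 CPM in 2D and 41.7, 36.6 and 37.5 CPM in 3D cells. All 3D libraries lay above all 2D libraries, with a 2.56-fold rise (log2 fold change of 1.35 ± 0.094 (SE), adjusted p = 2.68e-09). The other leading rises were all in the small subunit. MRPS26, which has no bacterial homolog, rose from 6.16, 7.75 and 7.28 to 14, 13.8 and 12.9 CPM (log2 fold change of 0.93 ± 0.11 (SE), adjusted p = 1.88e-06). MRPS6, the partner of the S18 protein on the platform, rose from 48.2, 53.4 and 54.9 to 94.4, 94 and 97.9 CPM (log2 fold change of 0.87 ± 0.063 (SE), adjusted p = 5.14e-09). In MRPS2, the homolog of bacterial S2, the values were 35.2, 35.1 and 31 in 2D and 61.4, 59.8 and 60.4 CPM in 3D (log2 fold change of 0.84 ± 0.065 (SE), adjusted p = 1.22e-08). None of these groups overlapped. MRPS5, which lies near the mRNA entry site and shares exon bases with another gene, was also higher in 3D (log2 fold change of 0.77 ± 0.063 (SE), adjusted p = 2.18e-08).

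The falls were smaller. MRPS18C, a copy of the bacterial S18 protein, was at 9.07, 7.49 and 8 CPM in 2D and 4.84, 5.93 and 5.49 CPM in 3D cells, with no overlap (log2 fold change of -0.60 ± 0.13 (SE), adjusted p = 0.000858). MRPL33, the homolog of bacterial L33, fell from 48.1, 49.3 and 48.6 to 37.6, 36.5 and 37.5 CPM (log2 fold change of -0.39 ± 0.059 (SE), adjusted p = 2.39e-05). MRPL52, MRPL43 and MRPL40, large subunit proteins without a bacterial homolog, fell by 0.28, 0.26 and 0.23 on the log2 scale (adjusted p = 0.0185, 0.0066 and 0.0626). The fall of MRPL40 lost its call in DESeq2 (adjusted p = 0.135) and without any 1 of 4 libraries, and that of MRPL52 without 3D replicate 2 (adjusted p = 0.133). By subunit, 32 of 50 large and 18 of 26 small subunit genes rose, with medians of 0.23 and 0.47. Counts were 34 of 46 for members with a bacterial homolog and 17 of 31 for those without.

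The 3D result depended on which mammospheres were compared with 2D cells. With the tet-MYCshRNA vehicle libraries in place of the 3D libraries, a comparison added after the data were seen, 59 members were higher and 3 lower (median 0.37), and MRPL52 and MRPL43 were then higher than in 2D cells, by 0.24 and 0.40 on the log2 scale. MRPS18C was then not called (-0.07, adjusted p = 0.586). The tet-MUC1shRNA vehicle libraries in that place gave 27 higher and 34 lower, with a median of -0.09, and MRPL4 changed by -0.20 (adjusted p = 0.101). MRPL4 shows the same split, at 13.7, 12.9 and 13 CPM in the tet-MUC1shRNA and 41.6, 35.8 and 31.4 CPM in the tet-MYCshRNA vehicle libraries. MYC mRNA was lowest among these mammospheres in the tet-MUC1shRNA line, at 241, 255 and 239 CPM with vehicle, against 589, 553 and 601 in 3D and 90.4, 87.3 and 78.3 in 2D cells. In the tet-MYCshRNA vehicle libraries it was at 439, 418 and 386 CPM. Its part in the difference was not tested.

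Genes that work with the mitochondrial ribosome were described from lists of textbook members. In 3D cells, 11 of 18 mitochondrial translation factors were higher and 1 lower, as were 16 and 2 of 24 genes for assembly and rRNA modification and 13 and 3 of 18 tested mitochondrial aminoacyl-tRNA synthetases. Of the 5 ribosomal subunits under other symbols, 4 rose, among them PTCD3 by 0.49 and DAP3 by 0.35 on the log2 scale. Cytosolic ribosomal protein genes had 75 of 85 higher and a median of 0.47. The background was 32.0% of all genes higher and 31.7% lower. The 13 mtDNA-encoded protein mRNAs, which the mitochondrial ribosome translates, were all lower (median -0.87).

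**Figure D2:**
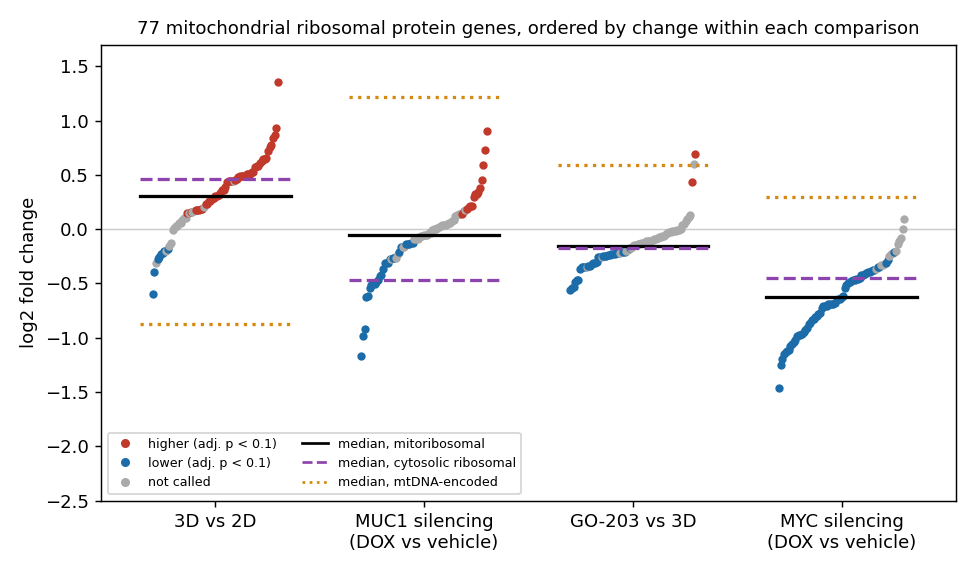
Change (log2 fold change) of the 77 tested genes in each of the 4 comparisons; points are genes in rising order, colored by call, and lines give the medians of these genes, of cytosolic ribosomal protein genes and of mtDNA-encoded protein genes. The median of the mitochondrial ribosomal protein genes is 0.31 in 3D against 2D, -0.06 on MUC1 silencing, -0.16 with GO-203 and -0.62 on MYC silencing, and that of the mtDNA-encoded genes lies on the other side of 0 in all 4. On MUC1 silencing the former median is near 0, and it was 0.11 with library size alone.

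Silencing of MUC1 addressed whether the same genes depend on MUC1-C in mammospheres. Of 77 genes, 15 were higher with DOX, 27 were lower and 35 were not called, against a background of 30.7% of 19220 genes higher and 31.6% lower (19.5% and 35.1% of the members). The median member changed by -0.06 and the median gene by 0.02. Past 1.5-fold there were 3 higher and 5 lower, against 17.6% and 14.6% of all genes. Groups were apart in 11 members above and 31 below vehicle, against 29.6% and 32.8% of all genes. The split depended on the scaling and the filter. When each of the 6 libraries had to hold 10 or more counts of a gene, 21 members were higher and 21 lower, with a median of -0.0062, and DESeq2 gave 10 and 26. With library size alone, which moved the median of all genes by 0.17, 34 members were higher and 15 lower, and the median member was 0.11.

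The falls were led by MRPL17, the homolog of bacterial L17 near the end of the exit tunnel. Its levels were 25.4, 23.9 and 22.5 CPM with vehicle and 10.7, 10.7 and 10.1 CPM with DOX, groups far apart, for a 2.24-fold fall (log2 fold change of -1.16 ± 0.076 (SE), adjusted p = 3.73e-11). MRPS35, a small subunit protein without a bacterial homolog and one of the more abundant members, fell from 157, 159 and 154 to 79.2, 80 and 73.9 CPM (log2 fold change of -0.99 ± 0.045 (SE), adjusted p = 1.17e-13). For MRPS6 the levels were 112, 101 and 102 and 55.1, 57.7 and 50.5 CPM (log2 fold change of -0.92 ± 0.054 (SE), adjusted p = 7.21e-12), and the DOX libraries came close to the 48.2, 53.4 and 54.9 CPM of 2D cells. MRPL48 of the central protuberance fell by 0.63 (adjusted p = 7.86e-07) and MRPL42 by 0.62 (adjusted p = 2.31e-10) on the log2 scale. These 5 held their calls under every alternative fit of this comparison.

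In the other direction, MRPL52 rose from 9.5, 8.68 and 9.95 CPM with vehicle to 18.2, 17.8 and 15.7 CPM with DOX, a 1.87-fold rise with no overlap (log2 fold change of 0.90 ± 0.087 (SE), adjusted p = 1.53e-08). MRPS11, a platform protein, rose from 7.8, 6.68 and 6.06 to 10.2, 10.7 and 9.28 CPM (log2 fold change of 0.59 ± 0.11 (SE), adjusted p = 9.12e-05). MRPL46, its head-to-head neighbor, was higher by 0.46 (adjusted p = 0.063), but its groups overlapped and the call was lost in DESeq2 (adjusted p = 0.134), with all 21 libraries in one fit (adjusted p = 0.156) and without tet-MUC1shRNA vehicle replicate 2 (adjusted p = 0.22). Without tet-MUC1shRNA DOX replicate 3 its change was 0.15 (adjusted p = 0.504). MRPS18C, MRPS17 (with overlapping exons) and MRPL49 rose by 0.38, 0.33 and 0.32 on the log2 scale, each with groups apart. Small subunit genes were called in 7 cases higher and 12 lower of 26, and large subunit genes in 8 and 15 of 50. Of the members without a bacterial homolog, 16 of 31 fell, against 11 of 46 with one, and that difference was not tested. Lower were 7 of 18 translation factors (2 higher), 7 of 24 assembly and modification genes (6 higher) and 5 of 18 synthetases (3 higher). The background was 31.6% of all genes lower and 30.7% higher. No ribosomal subunit under another symbol was called of 5. At the same time 74 of 85 cytosolic ribosomal protein genes fell (median -0.47), and all 13 mtDNA-encoded protein mRNAs rose (median 1.21).

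GO-203 was compared with the control 3D cells, the libraries also used against 2D cells, so a high 3D level enters both comparisons with opposite sign. Of 77 genes, 2 were higher, 31 lower and 44 not called. The background was 11.1% of 18488 genes higher and 12.9% lower, against 2.60% and 40.3% of the members. The median member changed by -0.16, the median gene by 0.02. No fall and 1 rise passed 1.5-fold, against 2.02% and 3.61% of all genes. The groups were apart in 2 members above and 40 below 3D, against 13.3% and 19.8% of all genes.

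MRPS34, a small subunit protein without a bacterial homolog, fell most. It was at 34.2, 28.8 and 30.8 CPM in 3D cells and 22.9, 20.7 and 18.5 CPM with GO-203, with no overlap (log2 fold change of -0.56 ± 0.084 (SE), adjusted p = 4.39e-05). MRPL41 fell from 35, 27.7 and 27 to 21.1, 22.3 and 17 CPM (log2 fold change of -0.54 ± 0.10 (SE), adjusted p = 0.000688) and MRPL14, which faces the small subunit and is bound by the assembly factor MALSU1, from 19.2, 16.8 and 18.1 to 13.5, 12.3 and 12.1 CPM (log2 fold change of -0.48 ± 0.088 (SE), adjusted p = 0.000403). MRPS26 fell by 0.47 on the log2 scale (adjusted p = 0.00326). MRPS28, one of the members with overlapping exons, fell by 0.53 (adjusted p = 0.0529), and lost its call without any 1 of 4 libraries (adjusted p from 0.103 to 0.188).

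MRPL33, another member with overlapping exons (BABAM2), was the exception. It rose from 37.6, 36.5 and 37.5 CPM in 3D to 48, 48.1 and 51.4 CPM with GO-203 (log2 fold change of 0.43 ± 0.055 (SE), adjusted p = 5.29e-06), close to its 2D level of 48.1, 49.3 and 48.6 CPM. The other gene called higher, MRPL45, which anchors the ribosome to the inner membrane, had values of 8.57, 13.7 and 4.03 CPM in 3D and 14.5, 13.7 and 13.1 CPM with GO-203, and the groups overlapped (log2 fold change of 0.69 ± 0.24 (SE), adjusted p = 0.046). DESeq2 and the fits without GO-203 replicate 1 or 2 called 1 member higher, MRPL33, so MRPL45 was not called there. All 13 mtDNA-encoded protein mRNAs rose (median 0.59), and 55 of 85 cytosolic ribosomal protein genes fell (median -0.17). Lower were 4 of 18 translation factors (1 higher), 6 of 24 assembly and modification genes (1 higher) and 3 of 18 synthetases (0 higher). The background was 12.9% of all genes lower and 11.1% higher. Of the 5 subunits under other symbols 3 fell, with GADD45GIP1 and AURKAIP1 at -0.55 and -0.43 on the log2 scale. MYC mRNA was not called (log2 fold change of -0.01 ± 0.051 (SE), adjusted p = 0.908).

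Silencing of MYC gave the largest change of the 4 comparisons. Of 77 genes, 64 were lower with DOX, 0 higher and 13 not called, against a background of 28.1% of 19951 genes lower and 30.3% higher, and the fallers made up 83.1% of the members. The median member changed by -0.62, a fall of over 1.5-fold, while the median gene changed by 0.01. Falls past 1.5-fold numbered 40 and rises 0, against 17.1% and 20.6% of all genes. In all 64 the DOX libraries lay below the vehicle libraries, as they did in 28.3% of all genes. DESeq2 also called 0 members higher, and 0 members had a rise at an unadjusted p below 0.05.

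MRPS2 fell most, from 48.1, 39.9 and 36.5 CPM with vehicle to 13.1, 17.2 and 15.6 CPM with DOX. The DOX libraries were all below every other library of the study, and the fall was 2.75-fold (log2 fold change of -1.46 ± 0.13 (SE), adjusted p = 5.91e-06). MRPL12, the stalk protein that recruits translation factors, fell from 5.78, 5.16 and 4.7 to 2.08, 2.82 and 1.78 CPM (log2 fold change of -1.25 ± 0.19 (SE), adjusted p = 0.000255), with the reservation that most of its exon bases overlap another gene. MRPL4 fell from 41.6, 35.8 and 31.4 to 11.7, 19.2 and 17.3 CPM (log2 fold change of -1.19 ± 0.17 (SE), adjusted p = 0.000176), near its level in 2D cells. MRPL1, the protein of the mobile stalk at the tRNA exit site, was at 65, 64.3 and 66.4 CPM with vehicle and 27.9, 30.9 and 31.5 CPM with DOX (log2 fold change of -1.13 ± 0.074 (SE), adjusted p = 7.33e-07). MRPL52 fell by 1.15 on the log2 scale (adjusted p = 0.000304). Among the most abundant members, MRPL3 fell from 277, 266 and 279.8 to 135, 114 and 134 CPM (log2 fold change of -1.12 ± 0.075 (SE), adjusted p = 8.07e-07), MRPL15 by 0.68 and MRPL37 by 0.61 on the log2 scale.

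Both subunits were involved, with 40 of 50 large and 23 of 26 small subunit genes lower (medians -0.62 and -0.67). So were members with (40 of 46) and without a bacterial homolog (24 of 31). Among the 13 genes not called, MRPS6 was at 85, 81.4 and 86.7 CPM with vehicle and 84.5, 81.7 and 77 CPM with DOX (log2 fold change of -0.08 ± 0.067 (SE), adjusted p = 0.362). MRPL40 (0.09 (adjusted p = 0.473)), MRPL10 (-0.14 (adjusted p = 0.392)) and MRPL43 (-0.20 (adjusted p = 0.278)) were also not called, and their groups overlapped. The remaining uncalled genes had log2 fold changes between -0.36 and 0.00, among them the low MRPL38, MRPL46 and MRPS24. The lists of partner genes fell as well. Lower were 14 of 18 translation factors, 16 of 24 assembly and modification genes (1 higher), 15 of 18 synthetases (1 higher) and all 5 subunits under other symbols, led by PTCD3 at -0.98. Cytosolic ribosomal protein genes had 72 of 85 lower (median -0.45). The background was 28.1% of all genes lower and 30.3% higher. Of the 13 mtDNA-encoded protein mRNAs, 10 were higher (median 0.30).

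**Figure D3:**
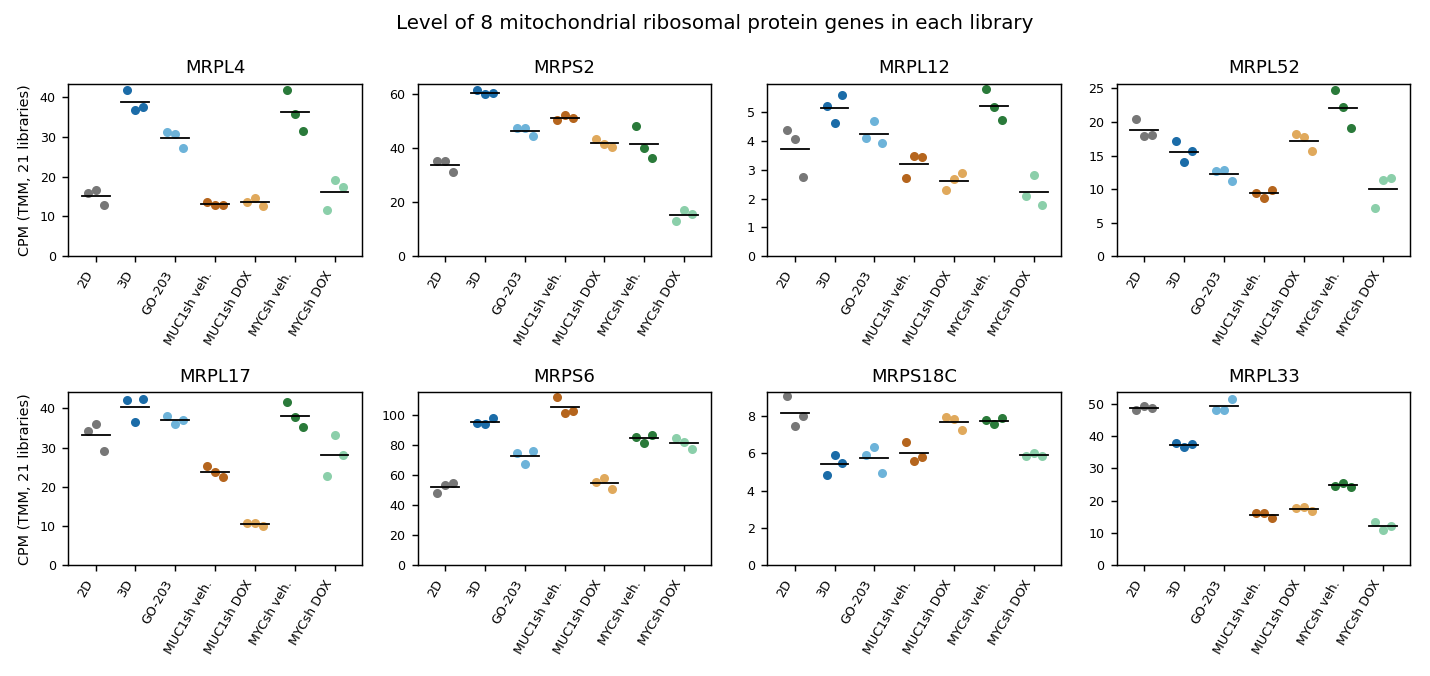
Level (CPM scaled by TMM over 21 libraries, axes from 0) of MRPL4, MRPS2, MRPL12, MRPL52, MRPL17, MRPS6, MRPS18C and MRPL33 in each library; points are libraries and black lines are group means. MRPL17 is lowest with DOX in the tet-MUC1shRNA line, MRPS2 is lowest with DOX in the tet-MYCshRNA line, and MRPS6 changes by -0.92 on the log2 scale with DOX in the tet-MUC1shRNA and by -0.08 in the tet-MYCshRNA line.

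The difference between the MUC1 and the MYC silencing responses was tested as an interaction over 12 libraries, where DOX is given in both lines. In 60 of 77 genes the change was higher (less of a fall, or a rise) on MUC1 silencing, in 6 it was lower and in 11 it was not called. The background was 26.0% of 21585 genes higher and 26.9% lower, against 77.9% and 7.79% of the members. The median difference was 0.54, and 0.05 over all genes. With library size alone, which moved the median of all genes by 0.20, the counts were 65 and 2. Cytosolic ribosomal protein genes had 18 of 85 higher and 23 lower, with a median difference of -0.08. The lines also differ in their levels with vehicle and, by the sample titles, in passage, and these cannot be told apart from the target of the hairpin.

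MRPL52 had the largest difference, 2.03 ± 0.21 (SE, adjusted p = 2.85e-07), and was the only called member whose change passed 1.5-fold in opposite directions, up on MUC1 and down on MYC silencing. MRPL4, MRPL1, MRPL33 and MRPS2 followed with 1.26 ± 0.20 (SE, adjusted p = 4.55e-05), 1.24 ± 0.11 (SE, adjusted p = 2.7e-08), 1.23 ± 0.12 (SE, adjusted p = 1.82e-07) and 1.18 ± 0.14 (SE, adjusted p = 2.16e-06). On the other side stood MRPS6 with -0.86 ± 0.091 (SE, adjusted p = 3.89e-07) and MRPL17 with -0.72 ± 0.16 (SE, adjusted p = 0.00117), both lower on MUC1 silencing by more. MRPS35 also differed, by -0.35 ± 0.079 (SE, adjusted p = 0.00117). MRPL10, at the base of the stalk, and the large subunit proteins MRPL40 and MRPL43 completed the 6, with -0.38 ± 0.15 (SE, adjusted p = 0.0494), -0.38 ± 0.17 (SE, adjusted p = 0.0851) and -0.36 ± 0.17 (SE, adjusted p = 0.0977). The calls of MRPL40 and MRPL43 were lost in DESeq2 (adjusted p = 0.118 and 0.127) and in 7 and 10 of the 12 fits that left out 1 library. The call of MRPL10 was lost in 3 of these 12 fits and with library size alone (-0.17, adjusted p = 0.329), where MRPL40 and MRPL43 also lost theirs. MRPL43 also lost its call with DESeq2's size factors in edgeR (adjusted p = 0.102) and with the replicate block (adjusted p = 0.162), and its difference was -0.19 without tet-MYCshRNA DOX replicate 2. Only 3 members were called in this direction without tet-MUC1shRNA vehicle replicate 1, tet-MYCshRNA vehicle replicate 3 or tet-MYCshRNA DOX replicate 3.

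**Figure D4:**
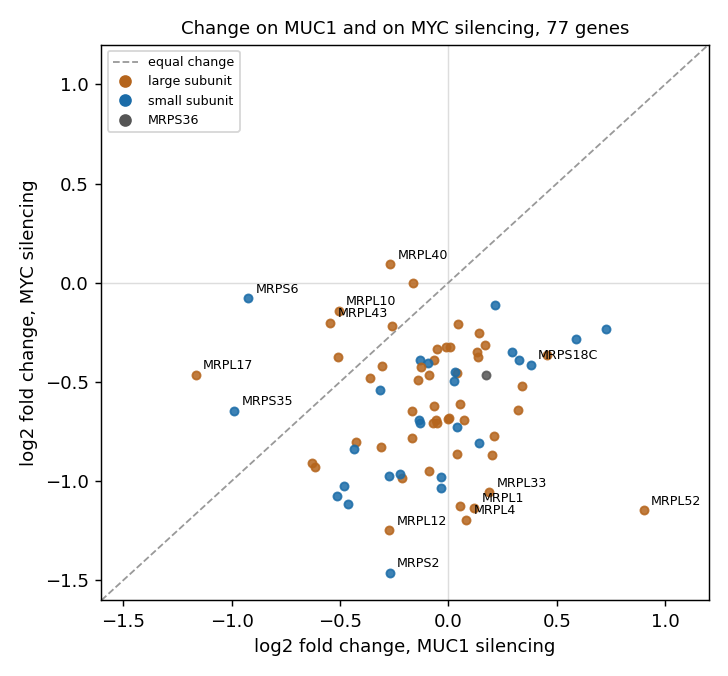
Change (log2 fold change) of 77 genes on MUC1 silencing (horizontal) and MYC silencing (vertical), colored by subunit, with a dashed line of equal change. Most genes lie below the line, MRPL52 farthest from it, while MRPS6, MRPL17, MRPS35, MRPL10, MRPL40 and MRPL43 are the labelled genes above it.

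Calls were set side by side for the comparisons that share no library. Of the 51 members higher in 3D, 47 were lower on MYC silencing (92.2% of these 51 and 73.4% of the 64 lower on MYC silencing). Whatever their call in 3D, 83.1% of the members were lower on MYC silencing. Among 17425 genes tested in all 3 comparisons, 44.4% of those higher in 3D were lower on MYC silencing. Of the same 51, 22 were lower on MUC1 silencing (43.1%, and 81.5% of the 27 lower there) and 6 were higher. The share lower on MUC1 silencing was 35.1% of all members tested and 48.8% of all genes higher in 3D. The full pattern of a rise in 3D and a fall on both silencings was shown by 20 genes, among them MRPL17, MRPS2, MRPS5, MRPS26, MRPS30, MRPS34 and MRPS35, and by MRPL58, a peptidyl-tRNA hydrolase built into the large subunit (26.0% of the members tested, against 8.06% of all genes). A rise in 3D with a fall on MYC silencing and no call on MUC1 silencing was shown by 21, among them MRPL1, MRPL4, MRPL12, MRPL37 and MRPS12 (27.3%, against 3.61% of all genes). The reverse pattern, a fall in 3D and a rise on MUC1 silencing, appeared in MRPL33, MRPL52, MRPS18C and MRPS7 (5.19%, against 12.2% of all genes), and all 4 fell on MYC silencing. They made up 50% of the 8 members lower in 3D, while 39.6% of all genes lower in 3D rose on MUC1 silencing. MRPL38, MRPL41, MRPL45 and MRPL54 were called in none of these 3 comparisons.

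The 3 paralogs of bacterial S18 differed. MRPS18B, at 28.6, 30.1 and 30.1 CPM in 2D and 47.1, 38.4 and 39.6 CPM in 3D, rose in 3D (log2 fold change of 0.49 ± 0.078 (SE), adjusted p = 4.59e-05) and fell with GO-203 (-0.35 (adjusted p = 0.0014)) and on MYC silencing (-0.41 (adjusted p = 0.00252)). MRPS18C fell in 3D and rose on MUC1 silencing, as given above, and fell on MYC silencing (-0.41 (adjusted p = 0.00839)). The large subunit paralog MRPS18A was called in 1 of the 4 comparisons, MYC silencing (-0.35 (adjusted p = 0.0249)), and not without tet-MYCshRNA vehicle replicate 1 (adjusted p = 0.108). In 3D cells its libraries, at 9.28, 8.62 and 9.65 CPM, overlapped those of 2D cells at 8.96, 9.82 and 8.51 CPM.

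For the proteins of the stalk that recruits translation factors, MRPL10, MRPL12 and MRPL54 had changes of the same sign in each of the 4 comparisons, and differences between the genes were not tested. On the log2 scale their changes in 3D were 0.65, 0.46 and 0.21, and those on MUC1 silencing were -0.51, -0.27 and -0.26. With GO-203 they were -0.26, -0.25 and -0.47, and on MYC silencing -0.14, -1.25 and -0.22. MRPL10 was at 17.7, 16.4 and 15.9 CPM in 2D and 27.6, 24.2 and 26.8 CPM in 3D (log2 fold change of 0.65 ± 0.080 (SE), adjusted p = 3.13e-06), and fell on MUC1 silencing from 51.3, 46.4 and 44 to 32.4, 34 and 31.7 CPM (log2 fold change of -0.51 ± 0.062 (SE), adjusted p = 5.27e-07). Its tet-MUC1shRNA vehicle level was above that of every other group. MRPL12 rose in 3D (0.46 (adjusted p = 0.0329)), a call lost without 2D replicate 3 (0.28 (adjusted p = 0.166)), and was not called on MUC1 silencing (-0.27 (adjusted p = 0.18)). MRPL54 was called in 1 of the 4 comparisons, GO-203 (-0.47 (adjusted p = 0.0278)), where its groups overlapped, and the call was lost without any 1 of 3 libraries (adjusted p from 0.101 to 0.211), with a change of -0.31 without 3D replicate 1. MRPL53 had too few counts to test.

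MRPS30, which pairs with MRPL37 in the large subunit, was at 123, 105 and 118 CPM in 2D and 191, 199.7 and 197 CPM in 3D cells (log2 fold change of 0.76 ± 0.064 (SE), adjusted p = 3.13e-08). It fell with GO-203 to 163, 159 and 172 CPM (log2 fold change of -0.22 ± 0.056 (SE), adjusted p = 0.00764). MRPS36, the oxoglutarate dehydrogenase subunit, was called higher in 3D with overlapping groups (0.34 (adjusted p = 0.0621)), was not called on MUC1 silencing (0.17 (adjusted p = 0.197)) and fell on MYC silencing (-0.46 (adjusted p = 0.0029)).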

How the data were processed

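RNA of 3 cultures a group was extracted with an RNeasy Plus kit, made into TruSeq Stranded mRNA libraries and sequenced as paired ends. The authors aligned reads to GRCh38 with STAR and counted them per gene with featureCounts, and they deposited these counts without normalization. The submitters' processing notes name CASAVA 1.8.2 and STAR 2.7.3a, the paper a later STAR version. The annotation release, strand setting and handling of reads with several matches are not given in the sources used here. Missing values were read as 0. They numbered 6498 in each 2D and 3D library, 7587 with GO-203, 4952 in the tet-MUC1shRNA and 5761 in the tet-MYCshRNA line. GO-203 and its 3D control therefore differ in them, as do vehicle and 2D libraries and the lines of the interaction. Among members only MRPL53 had missing values. Gene names and positions came from GENCODE on the same build.

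Each comparison was fitted on its own 6 libraries with edgeR 4.0.16 in R 4.3.3 (filterByExpr, TMM factors, quasi-likelihood test), with Benjamini-Hochberg adjustment over all genes tested and a threshold of 0.1, the threshold of the study. The study used DESeq2, here version 1.42.0 as an alternative. The difference between silencings was an interaction over 12 libraries. The scripts were tested on simulated data. Counting error is small at these depths except in members with few counts. Such members are MRPL38 (as low as 15 counts in a library), MRPS24 (34) and MRPL46 (75). The p-values measure the spread between 3 libraries, which may be technical. No 2 replicates agreed within sampling noise (chi-square per degree of freedom from 4.36 to 52.8 over 21 pairs).

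Named were the 5 largest rises and falls of each comparison with an adjusted p below 0.1, groups apart and a mean count of at least 100, the 5 largest differences each way in the interaction, the S18 paralogs, the stalk proteins, untested members, and the 3 highest and 3 lowest per length. MRPS30, MRPS36, MRPL45 and the members of joint patterns named beyond these were chosen after their values were seen. Members and lists were chosen with earlier results of these data known. Alternatives were other scalings, filters, thresholds and fits, a replicate block, each library left out, and vehicle libraries in place of 3D.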

Additional observations from a re-analysis of the deposited data

Results flagged for a closer look

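The response of mitochondrial ribosomal protein genes to DOX differed between the tet-MUC1shRNA and the tet-MYCshRNA line. By edgeR's test of the interaction, 60 members had a higher change on MUC1 silencing and 6 a lower one, against a background of 26.0% and 26.9% of all genes.

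The largest differences toward a higher change on MUC1 silencing, on the log2 scale, were those of MRPL52 (2.03), MRPL4 (1.26), MRPL1 (1.24), MRPL33 (1.23) and MRPS2 (1.18). In the other direction were MRPS6 (-0.86), MRPL17 (-0.72), MRPL10 (-0.38), MRPL40 (-0.38) and MRPL43 (-0.36). The last 3 lost their calls with library size alone, MRPL40 and MRPL43 also in DESeq2 (adjusted p = 0.118 and 0.127) and with at least 10 counts in every library (adjusted p = 0.13 and 0.154). MRPL43 further lost its call with DESeq2's size factors in edgeR (adjusted p = 0.102) and with the replicate block (adjusted p = 0.162). Of 12 fits that left out 1 library, 3 ended the call of MRPL10, 7 that of MRPL40 and 10 that of MRPL43, whose difference was -0.19 without tet-MYCshRNA DOX replicate 2. Each line holds 1 hairpin, the lines differ in passage by the sample titles, and these cannot be told apart from the target. DOX was 500 ng/ml in both lines, so a drug response that both lines share cancels in the difference, while one that differs between the lines cannot be told apart from the hairpins.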

How the results depend on the processing

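The fall on MYC silencing held in every alternative, with 63 to 68 members lower and 0 higher, except that 40 passed 1.5-fold. The rise in 3D held under other tools, scalings, filters and left-out libraries (42 to 53 higher). With tet-MUC1shRNA vehicle libraries in place of 3D, however, 27 were higher and 34 lower (median -0.0856). Signs were followed for the named genes only, and of these MRPL4 (-0.20), MRPL12 (-0.22), MRPL54 (-0.64) and MRPS18A (-1.07) turned. With tet-MYCshRNA vehicle libraries 3 were lower, and of the named genes MRPL52 (0.24), MRPL43 (0.40) and MRPL15 (0.68) turned. Past 1.5-fold, 12 were higher and 1 lower in 3D, 3 and 5 on MUC1 silencing, and 1 and 0 with GO-203. With at least 10 counts in every library, MUC1 silencing gave 21 higher and 21 lower (median -0.0062). With library size alone, it gave 34 higher and 15 lower (median 0.11), and 2 members had a lower change than on MYC silencing. The cause was not tested. DESeq2 called 1 member higher with GO-203. Without mtDNA genes the difference in share of counts was 0.0468 percentage points for 3D and 0.0131 for MUC1 silencing. With each library left out, members higher with GO-203 ranged from 1 to 2, and members with a lower change on MUC1 than on MYC silencing from 3 to 7.

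Signs also turned on the log2 scale among named genes near 0 that were not called. Members not named were not followed one by one in the alternatives, so the lists below are not complete. In 3D these were MRPL15 in DESeq2 (0.0028), MRPS18A (-0.051) and MRPL3 (-0.026) with library size alone, and MRPS18A with at least 10 counts in every library (-0.0029). On MUC1 silencing they were MRPL15 (-0.0074) and MRPL38 (-0.0058) in DESeq2, both with all 21 libraries in one fit (-0.018 and -0.015), and MRPS18B with library size alone (0.071). The difference between silencings in MRPL54 was 0.15 with library size alone, 0.0065 with no filter beyond 1 count and 0.012 with at least 10 counts. Leaving out 1 library, the ranges in 3D were -0.10 to 0.80 for MRPL38, -0.079 to 0.054 for MRPL15, -0.034 to 0.079 for MRPS18A and -0.014 to 0.093 for MRPL3. On MUC1 silencing they were -0.024 to 0.047 for MRPL15, -0.24 to 0.23 for MRPL38 and -0.0084 to 0.26 for MRPS18A. With GO-203 they were -0.28 to 0.15 for MRPL46 and -0.12 to 0.0083 for MRPS18A, and for MRPL54 the difference ran from -0.25 to 0.074.

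The replicate numbers showed no clear pairing of the libraries, although for GO-203 this is not settled. Deviations of same-numbered libraries correlated on average at -0.05, 0.04, 0.14 and -0.22 in 3D, MUC1 silencing, GO-203 and MYC silencing. The single pairs of GO-203 gave 0.21, 0.04 and 0.17. With replicate number as a block, members higher and lower were 51 and 8, 15 and 28, 3 and 34, and 0 and 63, and 60 and 5 in the interaction. The annotation used for counting limits what can be said of members that overlap other genes.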
